A study of Mus musculus with 2 samples.

Results

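The genes described here are those that type I interferon switches on, together with the genes that sense nucleic acids, carry the interferon signal and encode the ligand and its receptor. The set holds 54 named genes, chosen by name, out of 20660 genes with a probe that could be named on the array. A probe was assigned to a gene when its RefSeq accession belonged to that gene. By that rule 49 of the 54 genes had a probe, and Mx1, Mx2, Oas1b, Ddx60 and Ifi203 had no matched probe and were not analysed here. A gene is called measured when at least 1 of its probes was well above background, by the scanner software's own flag, on both arrays. There were 44 such genes.

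The study set macrophages grown from the marrow of mice with calpain-6 (Capn6-Wt) against macrophages of mice deficient in it (Capn6-Ko). Marrow from male mice was grown with M-CSF at 50 ng/mL, the growth factor that turns marrow cells into macrophages, and with TNF-α at 10 ng/mL, an inflammatory cytokine, in both groups. The culture lasted 3 days by one label and 4 by another, and the labels do not say how calpain-6 was removed. Cells of 4 mice were pooled, without a statement of how many went into each group, and each group was 1 single-colour Agilent array. With no replicates no test between genotypes was possible, no p-value is given, and every value describes these RNA pools rather than the genotypes.

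Type I interferons are secreted proteins that cells make when they detect foreign or misplaced nucleic acid. They bind a receptor of 2 chains, Ifnar1 and Ifnar2, whose kinases Jak1 and Tyk2 activate Stat2. With Irf9 it forms part of a complex that binds a short promoter sequence, the interferon-stimulated response element, and turns on genes that block viral replication. Macrophages are known to keep a low tonic level of this program without infection.

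Promoters were searched for the core of that element, by which genes of this kind are often recognised. The core searched was GAAANNGAAA, or TTTCNNTTTC when read on the other strand, in windows of 300 bases from 250 bases before to 50 bases after each gene's start. The windows come from RefSeq (GRCm38.p6), which held 42 of the 54 genes. Promoters of Dhx58, Ifi204, Ifi27l2a, Mx1, Mx2, Oas1b, Oas2, Parp14, Parp9, Rtp4, Usp18 and Zbp1 were not used here. Of the 42 genes 18 (42.9%) held the core, where it was found for 3.99% of 27025 genes in the table. In related lists it was in the promoters of 51.1% of 45 further interferon-stimulated genes and 58.8% of 17 interferon-γ and MHC class II genes, both above the share in the set. The share was below that of the set in the pathway's signalling genes, 28% of 25, and in NF-kB and TNF response genes, 0% of 17. A match is a stretch of letters and not a shown binding site.

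The promoters below show how the core varies in number and place. In each effector family with such a gene, the measured gene with the core and the highest difference between the arrays was taken. No PARP or MX gene qualified. Capitals mark every match of the core, each sequence runs from upstream to downstream of the gene, and all lie on GRCm38.p6. Oas3 lies at chr5:120777610-120777909 on the minus strand and Ifit3 at chr19:34583279-34583578 on the plus strand. Ifitm2 lies at chr7:140955912-140956211, Isg15 at chr4:156200769-156201068, Trim21 at chr7:102565433-102565732 and Rsad2 at chr12:26456403-26456702, all on the minus strand.
Oas3: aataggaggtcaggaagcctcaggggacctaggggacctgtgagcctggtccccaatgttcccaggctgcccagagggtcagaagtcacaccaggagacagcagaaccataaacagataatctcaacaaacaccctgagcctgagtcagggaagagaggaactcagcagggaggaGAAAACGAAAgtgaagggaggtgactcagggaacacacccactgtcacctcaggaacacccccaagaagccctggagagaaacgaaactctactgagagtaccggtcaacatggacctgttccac
Ifit3: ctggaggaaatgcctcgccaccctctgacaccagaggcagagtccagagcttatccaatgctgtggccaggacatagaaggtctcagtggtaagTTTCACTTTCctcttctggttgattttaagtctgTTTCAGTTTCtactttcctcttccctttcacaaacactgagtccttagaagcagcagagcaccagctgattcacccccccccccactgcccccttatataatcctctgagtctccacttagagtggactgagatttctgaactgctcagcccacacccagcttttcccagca
Ifitm2: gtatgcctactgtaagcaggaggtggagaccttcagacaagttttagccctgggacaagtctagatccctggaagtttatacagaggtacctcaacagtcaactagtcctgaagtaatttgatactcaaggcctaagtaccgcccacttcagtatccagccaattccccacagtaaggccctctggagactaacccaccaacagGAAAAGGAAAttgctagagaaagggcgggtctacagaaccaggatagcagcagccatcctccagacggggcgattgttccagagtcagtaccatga
Isg15: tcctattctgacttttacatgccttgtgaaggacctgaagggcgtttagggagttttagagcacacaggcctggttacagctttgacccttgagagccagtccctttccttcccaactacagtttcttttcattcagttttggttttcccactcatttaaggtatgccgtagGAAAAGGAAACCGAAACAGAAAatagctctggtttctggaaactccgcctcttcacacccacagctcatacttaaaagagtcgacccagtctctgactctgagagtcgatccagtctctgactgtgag
Trim21: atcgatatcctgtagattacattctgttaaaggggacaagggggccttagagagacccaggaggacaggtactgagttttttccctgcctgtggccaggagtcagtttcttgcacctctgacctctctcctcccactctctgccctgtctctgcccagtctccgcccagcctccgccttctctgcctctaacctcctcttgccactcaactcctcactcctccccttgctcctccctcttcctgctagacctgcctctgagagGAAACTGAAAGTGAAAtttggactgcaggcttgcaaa
Rsad2: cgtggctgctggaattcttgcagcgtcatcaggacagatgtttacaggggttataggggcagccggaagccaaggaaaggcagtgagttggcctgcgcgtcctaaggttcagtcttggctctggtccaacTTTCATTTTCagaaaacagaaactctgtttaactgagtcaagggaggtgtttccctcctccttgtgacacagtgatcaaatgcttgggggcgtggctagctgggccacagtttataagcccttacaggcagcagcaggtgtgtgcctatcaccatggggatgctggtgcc
Isg15 holds 3 matches that overlap one another, the first starting at -78 from the gene's start. Ifit3 holds 2 separate matches on the opposite strand, starting at -156 and -122 from the gene's start. Trim21 holds 2 overlapping matches inside the transcript, starting at 13 and 19, and the other 3 promoters hold 1 each.

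**Figure D1:**
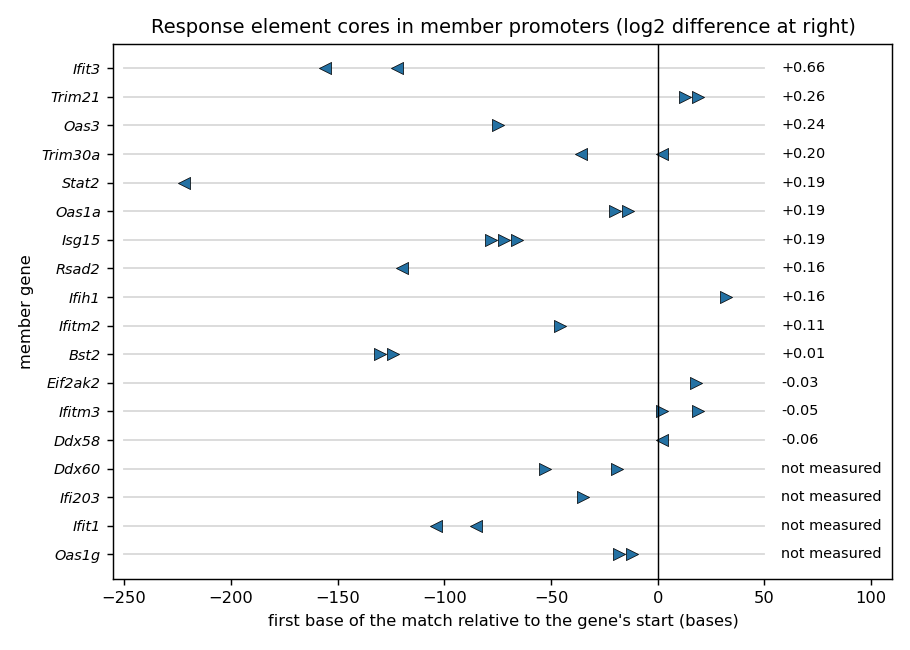
Each arrowhead is a match of the response element core in 1 of the 18 promoters that hold it, placed by the distance of its first base from the gene's start in bases (horizontal axis); right-pointing arrowheads are matches on the gene's strand and left-pointing ones on the other strand. Genes are ordered by their log2 difference, printed at the right, from 0.66 for Ifit3 to -0.06 for Ddx58, with 4 genes that have no measured difference at the bottom.

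On the arrays the genes of this set were mostly a little higher in Capn6-Ko. Of the 44 measured genes 38 were higher and 6 lower, where 47.8% of all 12875 measured genes were higher and 52.2% lower. Their median log2 difference, Capn6-Ko minus Capn6-Wt, was 0.12, beside -0.0056 over all measured genes. By a fixed size of 1.25-fold, a log2 difference of 0.322, 6 genes were higher and none lower. Of all measured genes 2.64% passed that size upward and 5.53% downward. That is 340 and 712 genes, a split that became 558 and 535 with the arrays centred on their medians, where 8 genes of the set were higher by that size. At 1.5-fold 2 genes were higher, Oas2 and Ifit3, and none lower, against 0.334% and 1.26% of all measured genes. No measured gene of the set reached 2-fold, which 0.0233% of all measured genes did upward and 0.0699% downward.

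Dim probes vary more, so the same counts were taken among the 6437 genes above the median level. There 21 of 22 genes of the set were higher, where 48.5% of all were and 51.5% were lower, with a median of 0.11 beside -0.003. Oas2, Rtp4 and Ifi27l2a passed 1.25-fold among these bright genes, 3 of 22, where 0.684% of all did. None was lower by that size, where 0.886% of all were. Where 2 signals are given for a probe, Capn6-Wt comes first, and differences are on the log2 scale, Capn6-Ko minus Capn6-Wt. Each difference is followed by ± 1 SD, taken from how far repeated spots scatter in the replicated probes of a similar level. Below the lowest level bin this SD is held at that bin's value and was not estimated separately. The SD covers spotting and scanning only, and not mice, culture, RNA extraction or labelling. By more than 2 of these SDs, 14 of the 44 genes were higher and none lower, where 5.48% of all measured genes were higher by as much and 7.1% lower.

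**Figure D2:**
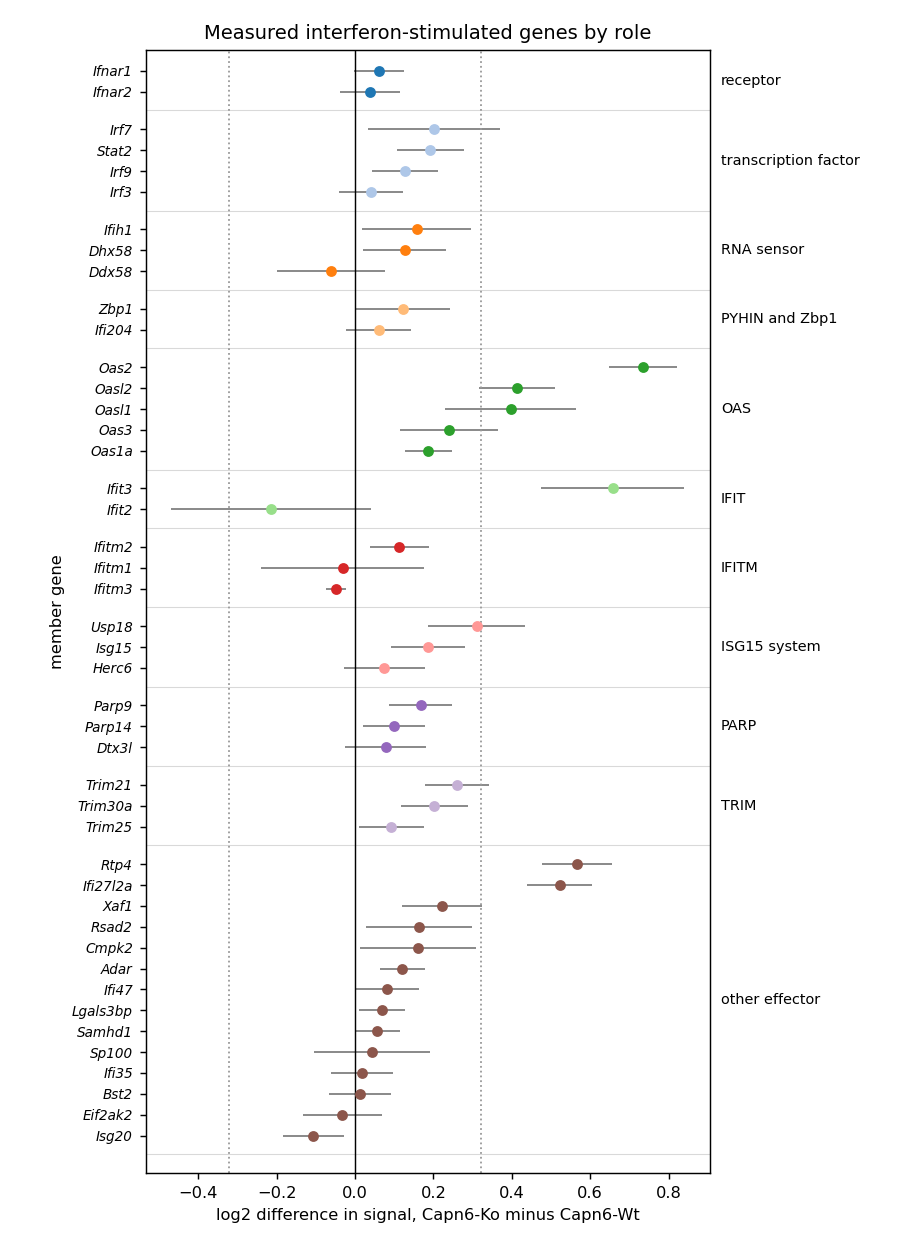
Each point is 1 of the 44 measured genes, grouped by role, at its log2 difference in signal, Capn6-Ko minus Capn6-Wt (horizontal axis), and the bar is 1 SD of spot-to-spot spread in each direction. Dotted lines mark 1.25-fold; 6 genes lie to the right of the upper line, led by Oas2 at 0.73, and none to the left of the lower.

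**Figure D3:**
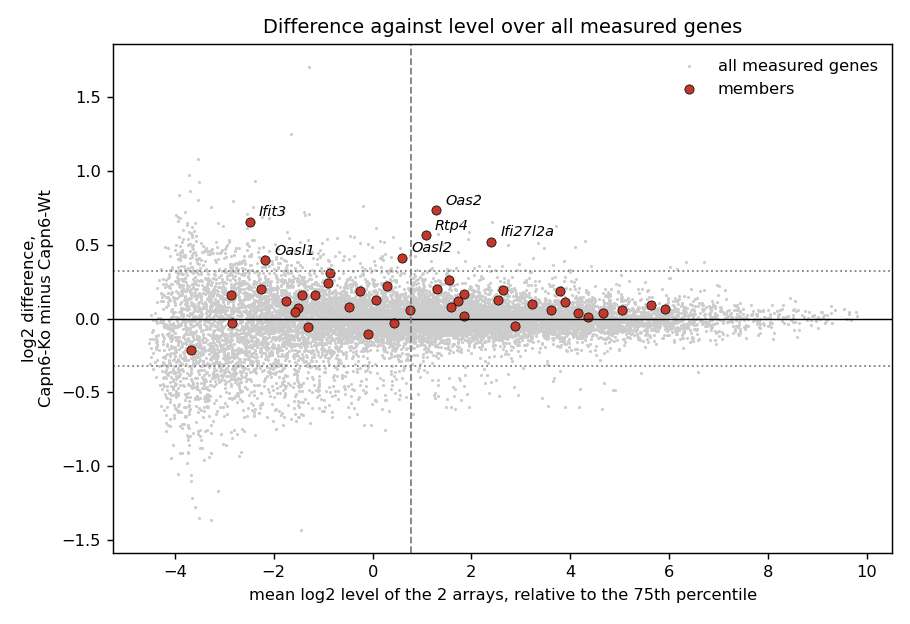
Grey points are the 12875 measured genes and red points the 44 genes of the set, by mean log2 level of the 2 arrays relative to the 75th percentile (horizontal axis) and log2 difference, Capn6-Ko minus Capn6-Wt (vertical axis). Dotted lines mark 1.25-fold and the dashed line the median level; to its right 21 of 22 red points lie above 0, while the grey points widen toward the left, where probes are dim.

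The single ligand gene of the set was not detected in either pool. Ifnb1, which encodes interferon-β, had a signal of 4.49 (Capn6-Wt) and 3.92 (Capn6-Ko), not well above background on either array. Both receptor chains were measured and nearly level. Ifnar2 had signals of 6624 and 6717, a difference of 0.04 ± 0.08. The 3 probes of Ifnar1 differed by 0.04 to 0.10, and their mean was 0.06 ± 0.06. Both values are within the spot-to-spot SD or at its edge.

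All 4 transcription factors of the set were higher, none by 1.25-fold, with a median of 0.16. Stat2, a subunit of the interferon-activated complex, had a Capn6-Wt signal of 2186 and a Capn6-Ko signal of 2467, a difference of 0.19 ± 0.08. Irf9, the DNA-binding subunit of that complex, had signals of 2094 and 2260, a difference of 0.13 ± 0.08. Irf7, which drives interferon-α genes and is itself interferon-inducible, was dim at 73.7 and 83.8, a difference of 0.20 ± 0.17. Irf3, the factor that acts first after nucleic acid is sensed and is not itself an interferon-induced gene, was at 9463 and 9611, or 0.04 ± 0.08. Among them the difference of Stat2 alone exceeded 2 spot-to-spot SDs.

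The RNA sensors differed by small amounts. Ifih1, the sensor MDA5 of long double-stranded RNA, was at 0.16 ± 0.14 over 2 probes, the brighter going from 849 to 945. Dhx58, the regulator LGP2, had signals of 379 and 408, a difference of 0.13 ± 0.11. Ddx58, the sensor RIG-I, had a mean of -0.06 ± 0.14, but its probes disagreed in sign. The bright Ddx58 probe went from 1255 to 1317, at 0.09 ± 0.08, and the dim one from 19.3 to 16.5, at -0.21 ± 0.26. With only the bright probe Ddx58 was higher, and it also turned to 0.0045 when the arrays were centred on their medians. No other of the 13 genes with several measured probes had probes of opposite sign.

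Zbp1, a sensor of left-handed nucleic acid, was at 0.12 ± 0.12, with both probes higher, from 242 to 259 and from 48.2 to 52.1. Ifi204, a DNA-binding protein of the PYHIN family, had signals of 12146 and 12507, a difference of 0.06 ± 0.08. Both differences were about 1 spot-to-spot SD or less.

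The OAS family had the highest median difference of the families measured. The active enzymes of this family make the short adenylate chains that activate the RNA-cutting enzyme RNase L, an activity not measured here. All 5 measured genes were higher, 3 by 1.25-fold, with a median of 0.40, though under background correction by normexp that median was 0.20. Oas2 had a Capn6-Wt signal of 712 and a Capn6-Ko signal of 1170, a difference of 0.73 ± 0.09, or 1.66-fold, the highest among the 44 measured genes. Oas2 lay at percentile 99.9 of all measured genes. Oasl2, an OAS-like gene, had signals of 495 and 651, a difference of 0.41 ± 0.10. Oasl1, an OAS-like gene known to restrain Irf7 translation, was dimmer at 72.8 and 94.6, a difference of 0.40 ± 0.17. Under normexp Oasl1 was below 1.25-fold, at 0.20.

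Oas3 had signals of 185 and 215, a difference of 0.24 ± 0.13. Oas1a was read by 2 probes that gave nearly the same value, 0.18 ± 0.08 at signals of 2165 and 2424 and 0.19 ± 0.08 at signals of 10980 and 12397. Oas1a was thus higher by more than 2 spot-to-spot SDs while below 1.25-fold. Both probes of Oas1g were at 12.4 or less on each array, not well above background. Oas1 genes are close copies of one another, and how far a probe reads its neighbours was not tested.

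The IFIT genes, whose products bind viral RNA and hold back its translation, were near the detection limit and differed in direction. Ifit3 had a Capn6-Wt signal of 53.8 and a Capn6-Ko signal of 83.8, a difference of 0.66 ± 0.18, or 1.58-fold, and of 0.35 under normexp. Ifit2 went the other way by less than its spread, from 31.9 to 27.1, a difference of -0.21 ± 0.26, and it was at 0.03 under normexp. Ifit1 was well above background in Capn6-Ko only, with signals of 14.2 and 18.1, a difference of 0.37 ± 0.26. A lower bound for such a gene came out at 1.1-fold higher there. For this bound the dim array counts at its own signal or at the lowest one the scanner software accepted there, whichever is greater. That lowest signal was 16.6 in Capn6-Wt and 14.03 in Capn6-Ko, and the Capn6-Wt signal of Ifit1 lay between them. The bound leaves out spot-to-spot scatter, and for Ifit1 it is smaller than 1 such SD.

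The IFITM genes encode membrane proteins that block viral fusion, and they were level. Ifitm3 was printed 10 times on each array, the only gene of the set with replicated spots. Its signals ran from 2706 to 2920 with a median of 2842 in Capn6-Wt, and from 2571 to 2845 with a median of 2691 in Capn6-Ko. The ranges overlap, and the difference was -0.05 ± 0.03. Ifitm2 had signals of 5355 and 5718, a difference of 0.11 ± 0.08, and Ifitm1 was dim at 53.2 and 51.4, a difference of -0.03 ± 0.21. The family's median, -0.03, had no settled sign, since it was 0.03 with the arrays centred on their medians and 0.0032 after quantile normalization. Ifitm3 and Ifitm1 also turned to 0.02 and 0.03 under that centring.

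The ISG15 system tags proteins with the ubiquitin-like Isg15, and its 3 genes were higher, with a median of 0.19. Usp18, which removes the tag and damps receptor signalling, was just below 1.25-fold, with a Capn6-Wt signal of 187 and a Capn6-Ko signal of 229 and a difference of 0.31 ± 0.12. Isg15 itself was at 0.19 ± 0.09, with its probes going from 1227 to 1403 and from 70.5 to 77.9. Herc6, the mouse ligase that attaches the tag, was at 0.08 ± 0.10. The ligase Herc6 was within its spread, while Usp18 exceeded 2 spot-to-spot SDs.

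The PARP and TRIM genes were higher by small amounts in all 6 cases. Parp9, an ADP-ribosyltransferase, had signals of 1290 and 1431, a difference of 0.17 ± 0.08. Its binding partner, the ubiquitin ligase Dtx3l, was at 0.08 ± 0.10, and Parp14 was at 0.10 ± 0.08. Only Parp9 of the 3 exceeded 2 spot-to-spot SDs. Trim21, a ligase that also binds antibody inside cells, had signals of 1001 and 1185, a difference of 0.26 ± 0.08. Trim30a had signals of 865 and 983, a difference of 0.20 ± 0.09, and Trim25, the ligase known for acting on RIG-I, was at 0.09 ± 0.08. Both Trim21 and Trim30a exceeded 2 spot-to-spot SDs.

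Of the 14 other measured effectors 12 were higher, and 2 of them passed 1.25-fold. Rtp4, a chaperone for membrane receptors, had a Capn6-Wt signal of 656 and a Capn6-Ko signal of 959, a difference of 0.57 ± 0.09, or 1.48-fold. Ifi27l2a, an interferon-inducible membrane protein, had signals of 1666 and 2362, a difference of 0.52 ± 0.08, or 1.44-fold. These are among the clearest values of the set, since both probes are bright. Xaf1, a partner of the apoptosis inhibitor XIAP, was at 0.22 ± 0.10, and its second probe was not well above background. Adar, the RNA-editing enzyme, was at 0.12 ± 0.06, with both probes higher, from 1061 to 1116 and from 1352 to 1482.

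Rsad2, the antiviral radical enzyme viperin, was at 0.16 ± 0.13, and its neighbour Cmpk2, a mitochondrial nucleotide kinase, was at 0.16 ± 0.15. The Rsad2 value shrank to 0.0036 under normexp. Ifi47, an interferon-inducible GTPase, was at 0.08 ± 0.08, the secreted glycoprotein Lgals3bp at 0.07 ± 0.06 and the dNTP-cleaving enzyme Samhd1 at 0.06 ± 0.06. The nuclear body protein Sp100 (0.04 ± 0.15), Ifi35 (0.02 ± 0.08) and the viral tether Bst2 (0.01 ± 0.08) were level. The RNA-activated kinase PKR, Eif2ak2, was at -0.03 ± 0.10, and turned to 0.03 with the arrays centred on their medians.

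Isg20, an RNA exonuclease, was lower on both of its probes. They went from 587 in Capn6-Wt to 539 in Capn6-Ko and from 228 to 209, and the mean difference was -0.11 ± 0.08. Of the 6 genes that were lower, Isg20 was the one to stay below 0 under all 8 alternative settings, at -0.11 to -0.04 over them, though it did not exceed 2 spot-to-spot SDs.

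Ifi44l was well above background in Capn6-Ko only. Its single spot had a signal of 3.82 (Capn6-Wt) and 48.9 (Capn6-Ko). By the lower bound used for Ifit1, which leaves out spot-to-spot scatter, it was at least 2.98-fold higher in Capn6-Ko. The observed log2 difference was 3.70 ± 0.26, with a Capn6-Wt signal that was not well above background. Its relative Ifi44 was not well above background on either array, with signals of 16.3 and 11.5. The Ifi44l value therefore rests on 1 spot per array. The share of all genes well above background on 1 array only is not given here. The flag accepted lower signals in Capn6-Ko, down to 14.03, than in Capn6-Wt, down to 16.6.

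Differences were also set beside the promoter motifs, including those printed above for Ifit3, Isg15 and Trim21. Within the set, the 14 measured genes with the core had a median of 0.17 and the 21 measured genes whose promoter lacks it in this window had 0.08, with 11 of 14 and 18 of 21 higher. By 1.25-fold 1 of the 14 (7.14%) and 2 of the 21 (9.52%) were higher, an order opposite to that of the medians. Oas2, Rtp4 and Ifi27l2a, 3 of the 6 genes past that size, are in neither group. Among genes in none of the lists used here, the 352 with the core had a median of -0.0003 and the 9803 without it -0.0054, with 49.4% and 48% higher. A second motif, the gamma-activated site TTCNNNGAA, which reads the same on both strands, was in 11 of the 42 promoters (26.2%), in those of 9.55% of all genes and in 47.1% of the 17 interferon-γ and MHC class II promoters. The 11 measured genes with it had a median of 0.02, and the 24 without it 0.16. These windows are short, and a core further away would not be seen.

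A list of 50 further interferon-stimulated genes, none of them in the set, had 41 measured genes, of which 32 were higher. Their median was 0.10, and 3 were higher by 1.25-fold and 1 lower. Samd9l, an antiviral factor, was higher on both probes, from 1953 to 2428 and from 1131 to 1451, a mean of 0.36 ± 0.06. Ifitm6 was dim, from 59.6 to 85.2, a difference of 0.53 ± 0.18. The value of Ms4a4c, 0.34 ± 0.08, averages 2 dim probes at 0.41 and 0.68 with a bright one at -0.05, so its bright probe does not share the direction. Slfn5 was lower, from 105 to 81.8, a difference of -0.34 ± 0.16.

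That list also holds further Oas1 genes. Oas1f had signals of 4139 and 4815, a difference of 0.24 ± 0.07, Oas1c was at 0.23 ± 0.11, and Oas1h was not well above background. Ifit3b, a close copy of Ifit3, was well above background in Capn6-Ko only, on 1 probe with signals of 9.82 and 21.5. Its bound was 1.31-fold higher there, leaving out a spot-to-spot SD of 0.26. The other Ifit3b probe was not well above background on either array. Oas1f and Oas1c, like Oas1a, exceeded 2 spot-to-spot SDs.

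The signalling genes of the pathway stood close to the background. Of 28 measured genes 15 were higher and 13 lower, with a median of 0.02, and the split was 21 and 7 with the arrays centred on their medians. Jak1, at -0.04 ± 0.08, and Tyk2, at 0.05 ± 0.08, the receptor's kinases, were level. The enzymes that load Isg15, Uba7 (0.15 ± 0.08) and Ube2l6 (0.24 ± 0.08), were higher, and only the latter exceeded 2 spot-to-spot SDs. Socs3, a feedback inhibitor of cytokine receptors, was at -0.24 ± 0.09. The interferon-κ gene Ifnk was the only signalling gene past 1.25-fold, at -0.76 ± 0.24 on a dim probe that went from 46.8 to 27.3.

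Interferon-α genes were dim or not well above background. Ifna1 had signals of 62.5 and 58.5, Ifna2 of 35.7 and 30.01 and Ifna5 of 41.3 and 49.2. Their differences were -0.08 ± 0.19, -0.23 ± 0.25 and 0.27 ± 0.22. Ifna4 and Ifne were not well above background. None of these differences exceeded 2 spot-to-spot SDs, and they did not share a direction.

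A pair of neighbouring programs gives the scale. The 22 measured genes of interferon-γ response and MHC class II had a median of 0.07, with 15 higher, 3 by 1.25-fold. That is 13.6% of them past this size, the same share as in the set. Among genes above the median level the order of the medians was turned, at 0.23 over 10 interferon-γ genes, 8 of them higher, and 0.11 over the 22 of the set. Among the interferon-γ and MHC genes past 1.25-fold H2-Ab1, a chain of MHC class II, was at 0.53 ± 0.06, H2-Eb1 at 0.51 ± 0.08 and the guanylate-binding protein Gbp9 at 0.35 ± 0.14. The class II transactivator gene Ciita was lower on a dim probe, at -0.53 ± 0.26. The 17 measured NF-kB and TNF response genes, the program that the added TNF-α drives, had a median of 0.02, with 13 higher and 1 gene past 1.25-fold in each direction. Those were Il1b, at 0.62 ± 0.08 on a dim probe that went from 24.3 to 37.1, and Ptgs2, at -0.50 ± 0.04. Socs1 and Irf1 stand in both the interferon-γ and the signalling list.

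**Figure D4:**
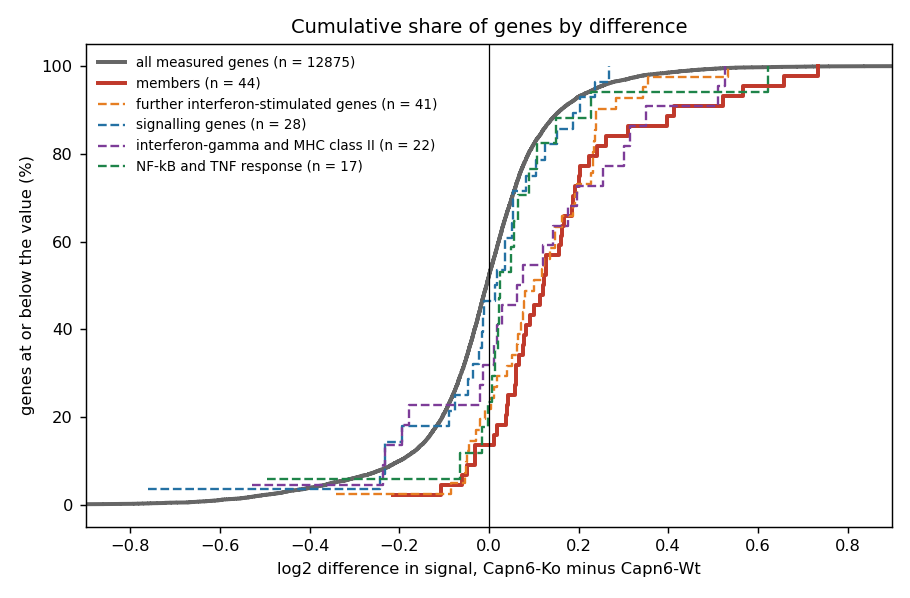
Each line gives the percent of a list's measured genes (vertical axis) at or below a log2 difference, Capn6-Ko minus Capn6-Wt (horizontal axis, from -0.9 to 0.9). The solid red line of the 44 genes of the set and the dashed line of the 41 further interferon-stimulated genes lie to the right of the grey line of all 12875 measured genes, with medians of 0.12 and 0.10, while the line of the 28 signalling genes, with a median of 0.02, lies nearer the grey line and crosses it.

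Several facts of the arrays stand beside these values. Of 59305 spots, 51.7% (Capn6-Wt) and 52.8% (Capn6-Ko) were well above background, and 0 were saturated. The single Capn6 probe was not well above background on either array, at 3.93 and 8.65, and so does not check the labels. All 8 macrophage markers with a probe were measured, 6 of them higher, with a median of 0.19 and a summed level of 876 (Capn6-Wt) and 940 (Capn6-Ko), in units of each array's 75th percentile. Cd68 had no matched probe. All 9 measured stromal fibroblast markers were lower, with a median of -0.50 and a summed level of 81.3 and 54.3, and Lum was not well above background. The part of this shift in cell markers in the interferon values was not tested. In RNA from whole cultures, fewer cells of a type and less RNA per cell cannot be told apart.

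Plasmacytoid dendritic cells, a main source of interferon-α, share several markers with other myeloid cells. Of 8 such markers 6 were measured and 4 were higher, with a median of 0.03 and a summed level of 211 (Capn6-Wt) and 206 (Capn6-Ko). Most of that sum is 1 probe of the defining lectin Siglech, with signals of 62926 and 60082 and a difference of -0.05 ± 0.08. The second Siglech probe was not well above background, at 4.45 and 3.87. Spib, a B lymphoid and plasmacytoid factor, was well above background in Capn6-Ko only, with signals of 20.9 and 39.1. Its observed difference was 0.92 ± 0.26, or 1.9-fold, on 1 spot per array, and Klk1 carried no bound above 1. Conventional dendritic cell markers were mostly not detected, with 1 of 6 measured, Ccr7, at 0.19 ± 0.20. Clec9a was well above background in Capn6-Ko only, with signals of 14.2 and 21.2 and a lower bound of 1.29-fold. Of 4 markers of Ly6C monocytes 2 were measured and went opposite ways, Ccr2 at 0.69 ± 0.17 and Plac8 at -0.36 ± 0.13, with a summed level of 1.65 and 1.32. Neutrophil, B cell and T and NK cell markers had medians of -0.02, -0.28 and -0.04 over 7, 3 and 4 measured genes.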

How the data were processed

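Total RNA, labelled with Cy3, from 1 pool per group was hybridised to 2 arrays. Per the file headers, the authors read the slide with Feature Extraction 10.10.1.1 (Agilent), and the deposited values are linear spot intensity. The processed signal used here is background-subtracted within the array and not scaled between arrays. The authors' value table holds the same intensity multiplied by 2.39 (Capn6-Wt) or 2.42 (Capn6-Ko), with column medians of 53 and 50.7; no label used here gives the reason for these constants.

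Here each processed signal was divided by its array's 75th percentile over non-control spots (376.9 and 372.1) and put on a log2 scale, leaving out 161 and 136 outlier spots. Spots of a probe were averaged, and a gene is the mean over its measured probes, those with most spots well above background on both arrays. Accessions were matched to a RefSeq table of GRCm38.p6, used for names, which named 27232 of 55678 probes; the array was designed on mm9. The spot-to-spot SD comes from 264 probes with at least 5 usable spots per array, in 8 bins of level. The number of arrays limits the precision. The computation of gene differences and their spot-to-spot SD was tested on simulated data with known changes. Python 3.11.15, numpy 2.4.6, pandas 2.3.3, R 4.3.3 and limma 3.58.1 were used.

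Named genes are every gene of the set, pathway genes past 1.25-fold or of the receptor complex, and up to 4 per comparison list; others were chosen after their values were seen. The members and lists were chosen with earlier results of these data known. Alternatives changed the scaling, background correction, filter on dim probes, probe choice and outlier spots. The result of 1 signalling gene is not reported here.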

Additional observations from a re-analysis of the deposited data

How the results depend on the processing

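The set stayed higher under all 8 alternative settings, with a median log2 difference from 0.10 to 0.19, and the further interferon-stimulated genes did too, at 0.06 to 0.16. Not all of these settings are independent checks. The authors' value table carries the same scaling as the main values and could not differ from them, with a set median of 0.1212. Keeping outlier spots also gave 0.1212. The genes of the set higher by 1.25-fold numbered 4 to 9, but the background moved too: the 4 are of 32 genes with only bright probes, where 73 of 8410 genes passed, and the 9 of 49 genes without a filter, where 1667 of 20660 did. With the arrays centred on their medians, which shifts all genes by 0.0648, 2 genes of the set, 2 further genes and 7 signalling genes were lower, 1 signalling gene was higher by 1.25-fold and 0 further genes lower by it; over all measured genes the split at 1.25-fold was then 558 higher and 535 lower, against 340 and 712. Normexp, added after seeing the data because the planned spot means were not used here, left 0 further and 0 signalling genes lower by 1.25-fold. Without a filter on dim probes 1 gene of the set was lower by 1.25-fold, 14 further genes were lower, and 5 further and 3 signalling genes were higher by 1.25-fold. With only probes above the median level 3 genes of the set and 7 signalling genes were lower, 1 further gene was higher by 1.25-fold, and 0 further and 0 signalling genes were lower by it; fewer genes are tested there. The IFITM median turned to 0.0331 by median centring, 0.0032 after quantile normalization, 0.0038 under normexp and 0.032 with bright probes; the cause was not tested. Of 340 values of single genes under alternatives 328 stayed within their spot-to-spot SD. Part of these could not move, so the count does not measure robustness. The authors' value table repeats the main scaling. A gene with 1 probe keeps its value when only the filter or the probe choice changes, such as Oas2 at 0.7349. No paired analysis was possible because each group is 1 array. Dim probes limit the IFIT genes, Irf7, Oasl1 and Cmpk2.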
